A study of Mus musculus with 6 samples.

Results

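Genes that encode the repair machinery for double-strand breaks, interstrand crosslinks, mismatches and bulky lesions were compared between wild-type (WT) mouse embryonic stem (ES) cells and ES cells with a knockout (KO) of Alkbh1. The group was defined by name and holds 44 genes out of the 23951 rows of the authors' deposited table, in 6 roles: homologous recombination (14 genes), the Fanconi anaemia pathway (10), mismatch repair (3), checkpoint kinases (4), end joining (6) and nucleotide excision repair (7). All 44 were found and all 44 were tested by the authors. WT cells were TT2, a line of mixed C57BL6 and CBA background, grown without feeder cells and taken at passage 5. KO cells shared line, background, culture and passage and carried the Alkbh1 knockout, whose allele the labels do not describe. Alkbh1 codes for an AlkB-type dioxygenase, one of a family known for taking methyl groups off DNA and RNA. The series has 2 WT libraries and 4 KO libraries, the latter from 2 clones with 2 libraries each. Messenger RNA was read by strand-specific sequencing, and the table gives 1 value for WT and 1 for KO per gene, in FPKM (fragments scaled to transcript length and to the number of mapped fragments).

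Which libraries entered each value is not stated. Because libraries have no values of their own in that table, the levels below carry no SD, clones could not be set apart, and depth is unknown. An effect of the genotype cannot be told apart from differences between cell clones. In bulk RNA a lower level from fewer cells and one from less RNA per cell cannot be told apart either. The labels do not say whether replicates were separate cultures, so the authors' p-values may measure technical spread only. A gene is called here where the authors' q-value, their p-value adjusted over all tested genes, is under 0.05. Alkbh1 itself stood at 33.9 FPKM in WT and 18.1 in KO and was not called in the authors' deposited table (log2 fold change -0.90, q = 0.0943), where its row shares a region with 4 others, so that reads of overlapping genes are uncertain. None of 8 ES cell markers was at 0 in either genotype, and their summed level was 7285 FPKM in WT and 4483 in KO, with 6 called lower. Esrrb was not called, and the authors' test of Nanog failed. Of 8 fibroblast markers 4 were called higher (Col1a1, Thy1, Pdgfrb and Fn1), and the authors tested no others of the 8. The 8 summed to 59.2 FPKM in WT and 97.8 in KO, most of it Fn1, while Col3a1 and Postn were listed at 0 in WT. Of 4 neural markers 2 were called lower, Pax6 (3.58 FPKM in WT and 0.552 in KO) and Sox1 (0.559 and 0.124 FPKM), and the 4 summed to 51.0 FPKM in WT and 47.9 in KO. Of 6 endoderm markers 1 was called higher (Gata4) and 1 lower (Sox7), with sums of 1.77 and 1.49 FPKM, and the authors tested no others of the 6. Summed over tested genes, FPKM in KO came to 63.6% of WT, so that equal totals would raise every log2 fold change by 0.65. The part of these differences in the results below was not tested.

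Cells repair a broken chromosome either by copying an intact sister strand, which is homologous recombination, or by rejoining the ends directly. Recombination begins when the MRE11, RAD50 and NBN complex trims the ends, after which BRCA1, PALB2 and BRCA2 prepare the strand for exchange with its sister. The Fanconi anaemia proteins detect strands that are crosslinked to each other and hand them on to recombination, mismatch repair corrects copying errors, and nucleotide excision repair cuts out bulky lesions. ES cells divide fast, spend much of the cycle in S phase, and are known for a strong use of homologous recombination.

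Promoters of 5 of these genes are shown because the genes differed between the genotypes and stand for the features counted next: E2F words (Brca2, higher in KO, and Msh3, lower), a pair of CCAAT boxes (Fanca, the gene that rose furthest), and a start close to that of an oppositely oriented neighbour which was also lower (Xrcc4 and Palb2). Each window runs from 250 bases before to 50 bases after the RefSeq start on GRCm38.p6, 5′ to 3′ on the gene's strand, at chr5:150522371-150522670 (plus strand), chr13:92354954-92355253, chr8:123318527-123318826, chr13:90089559-90089858 and chr7:122132897-122133196 (minus strand). Capitals mark matches to the E2F words, CCAAT and GGGCGG on either strand.
Brca2: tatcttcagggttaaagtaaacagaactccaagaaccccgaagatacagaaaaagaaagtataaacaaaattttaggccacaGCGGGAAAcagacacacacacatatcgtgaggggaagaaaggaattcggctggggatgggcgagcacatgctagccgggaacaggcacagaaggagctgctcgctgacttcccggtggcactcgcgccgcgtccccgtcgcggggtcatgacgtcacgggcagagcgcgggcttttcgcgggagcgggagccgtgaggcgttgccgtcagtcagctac
Msh3: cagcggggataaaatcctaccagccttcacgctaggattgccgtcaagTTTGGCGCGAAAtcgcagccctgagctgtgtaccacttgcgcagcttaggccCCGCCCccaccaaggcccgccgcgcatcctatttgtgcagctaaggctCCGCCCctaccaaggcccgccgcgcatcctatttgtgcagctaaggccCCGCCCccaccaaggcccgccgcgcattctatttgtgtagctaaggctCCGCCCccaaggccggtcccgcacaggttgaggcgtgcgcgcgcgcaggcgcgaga
Fanca: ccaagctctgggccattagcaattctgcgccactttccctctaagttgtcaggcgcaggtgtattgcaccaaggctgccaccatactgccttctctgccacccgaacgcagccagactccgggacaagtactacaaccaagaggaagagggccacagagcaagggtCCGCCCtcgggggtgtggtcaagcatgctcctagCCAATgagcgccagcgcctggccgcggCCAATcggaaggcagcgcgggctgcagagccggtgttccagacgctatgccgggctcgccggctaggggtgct
Xrcc4: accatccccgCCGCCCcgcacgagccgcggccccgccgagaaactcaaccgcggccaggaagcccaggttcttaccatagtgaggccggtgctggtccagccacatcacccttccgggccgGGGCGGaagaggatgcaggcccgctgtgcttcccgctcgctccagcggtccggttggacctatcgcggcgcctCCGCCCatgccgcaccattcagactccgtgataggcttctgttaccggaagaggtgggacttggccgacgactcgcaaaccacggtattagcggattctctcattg
Palb2: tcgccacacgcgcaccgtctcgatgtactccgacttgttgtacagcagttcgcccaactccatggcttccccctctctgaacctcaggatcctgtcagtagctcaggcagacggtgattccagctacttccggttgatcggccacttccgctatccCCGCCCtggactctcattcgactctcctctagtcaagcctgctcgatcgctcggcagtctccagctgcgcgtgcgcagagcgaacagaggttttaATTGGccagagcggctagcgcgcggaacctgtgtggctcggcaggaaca
The Brca2 window holds 1 E2F match that begins 168 bases before the start, and the Msh3 window holds 2 that overlap each other, from 202 bases before it. In the Msh3 window, 4 matches to GGGCGG begin 150, 102, 54 and 6 bases before the start, at an even spacing. In the Fanca window the CCAAT letters begin 50 and 23 bases before the start.

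E2F words and CCAAT boxes were more frequent in promoters of the repair genes than in those of all tested genes, and they occurred in genes called in either direction and in uncalled ones. E2F factors drive S phase genes, NF-Y binds CCAAT boxes and SP1 binds GGGCGG. RefSeq windows were found for 36 of the 44 genes. The words TTTGGCGC, TTTCGCGC, TTTCCCGC and TTTGCCGC, read on both strands, occurred in 8 of the 36 (22.2%), against 4.17% of 11011 promoters of tested genes and 2.32% of all 27025 promoters. The 8 genes were Bard1, Brca2, Chek2, Fancg, Msh3, Msh6, Rad51c and Xrcc6, of which 1 was called higher, 2 lower and 5 were not called in the authors' deposited table. CCAAT occurred in 22 of the 36 (61.1%) against 39.1% of promoters of tested genes, and GGGCGG in 24 (66.7%) against 63.4%. Over all 27025 promoters the shares were 37.9% for CCAAT and 35.9% for GGGCGG. Among the genes called lower CCAAT occurred in 6 of 12 and among those called higher in 3 of 5. E2F words that end in CCGC can share letters with GGGCGG, and a match is a run of letters, not a shown binding site.

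Differences between KO and WT went both ways and mostly stayed within a fold of 2. In the authors' deposited table, 14 of the 44 genes were called lower and 6 higher, and 24 were not called. The share called was 45.5%, against 50.8% of all 14095 tested genes, and in each direction it was 31.8% against 28.4% for lower and 13.6% against 22.4% for higher, so the called share lay near that of all genes. With equal totals the same 20 calls, which were not tested anew, split by sign into 10 higher and 10 lower. Among those 10 lower, Palb2 (-0.015), Msh3 (-0.031), Xrcc5 (-0.045), Rad52 (-0.046), Mre11a (-0.071) and Xpa (-0.078) lay close to 0. The furthest below 0 was Nbn, at -0.50. The median log2 fold change of the 44 genes was -0.16, beside -0.06 for all tested genes, and would be 0.49 with equal totals. Nbn was the gene with the largest fall and the only one past a fold of 2, and Fanca had the largest rise. Levels in WT ran from 3.0 FPKM for Fancf to 269 FPKM for Msh6.

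**Figure D1:**
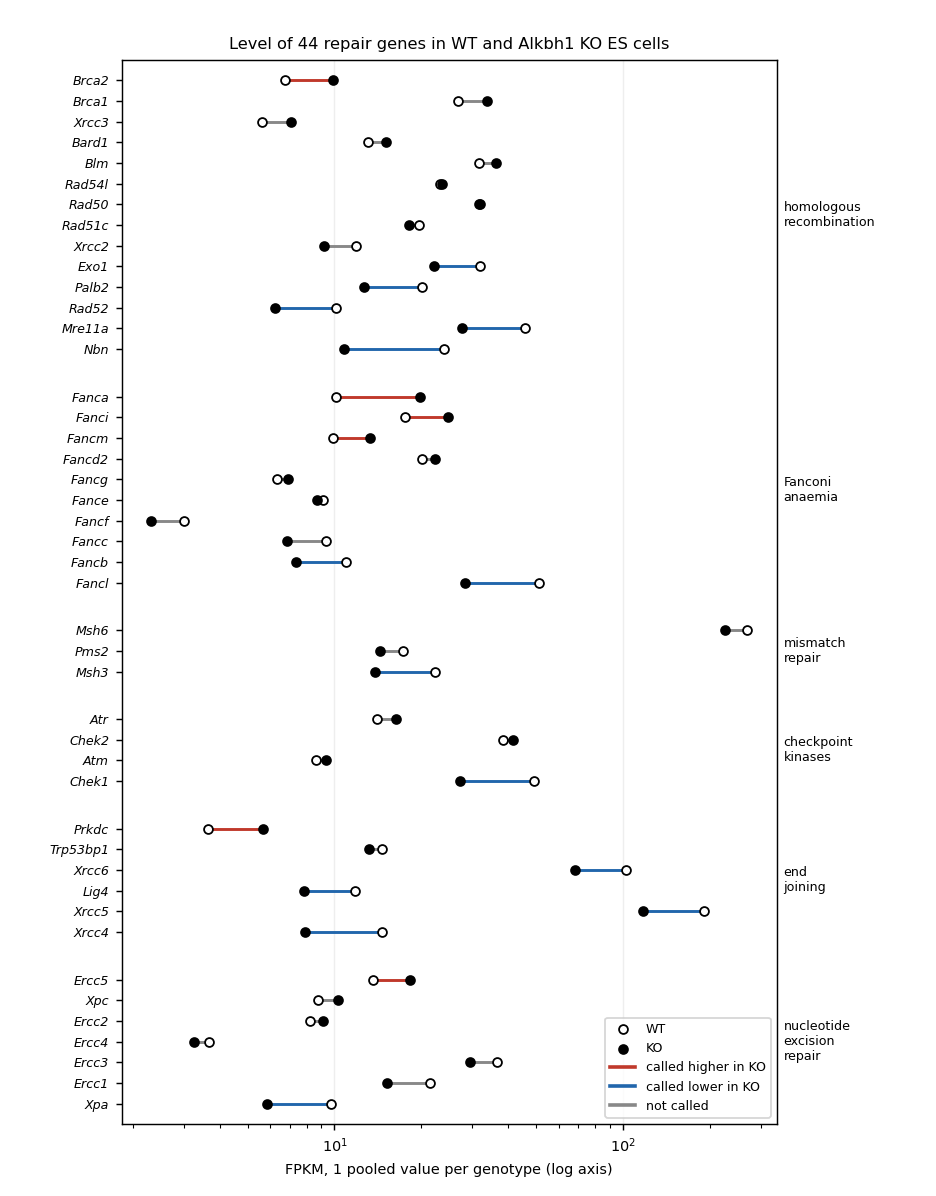
FPKM (log axis) of each of the 44 genes in WT (open circles) and KO (filled circles), 1 pooled value per genotype with no error bar, grouped by role; line colour gives the authors' call at q under 0.05. Most lines are short, Nbn and Fanca have the longest, and Xrcc5, Xrcc6 and Msh6 lie far to the right.

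Among genes of homologous recombination, several end-trimming and mediator genes fell while Brca2 rose. Of 14 genes 5 were called lower (Nbn, Mre11a, Rad52, Palb2 and Exo1), 1 higher (Brca2) and 8 were not called in the authors' deposited table. The shares were 35.7% lower and 7.14% higher, against 28.4% and 22.4% of all tested genes, and 42.9% called against 50.8%. With equal totals Exo1 turned and the split by sign was 4 lower and 2 higher, with Mre11a, Rad52 and Palb2 close to 0. Nbn (chromosome 4, 15885113 to 15919736, mm9), whose protein ties the trimming complex to the ATM kinase, fell from 23.9 to 10.8 FPKM by the authors' deposited table (log2 fold change -1.15, q = 0.000206). Mre11a, the nuclease of that complex, fell from 45.7 to 27.6 FPKM (-0.72, q = 0.000206 in the authors' deposited table). Rad50, its ATPase, stood at 31.9 FPKM in WT and 31.6 in KO (-0.01, q = 0.952 in the same table). Nbn was thus at 0.749 times the level of Rad50 in WT and at 0.341 times in KO, and Mre11a at 1.43 and 0.874 times. Such ratios do not depend on the scaling between libraries but have no error of their own. They also carry the trends with level and length across all tested genes that are given below. Exo1, an exonuclease that extends the trimming, fell from 31.8 to 22.1 FPKM by the authors' deposited table (-0.52, q = 0.00205), and turned to 0.13 with equal totals.

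The genes of the BRCA axis moved apart. Palb2, the bridge between BRCA1 and BRCA2 (chromosome 7, 129250775 to 129276460, mm9), fell from 20.1 to 12.7 FPKM by the authors' deposited table (log2 fold change -0.67, q = 0.00163). Brca2, a mediator of recombination (chromosome 5, 151325195 to 151372721, mm9), rose from 6.74 to 9.90 FPKM there (0.55, q = 0.00104). The level of Palb2 was 2.99 times that of Brca2 in WT and 1.28 times in KO. After subtraction of the median of genes similar in both level and length, Palb2 lay at -0.50 and Brca2 at 0.29. Brca1, a ubiquitin ligase subunit that favours recombination, stood at 26.9 FPKM in WT and 33.9 in KO and just missed the threshold in the authors' deposited table (0.33, q = 0.0580). Its partner Bard1 was at 13.0 and 15.1 FPKM, and the ratio of Bard1 to Brca1 was 0.485 in WT and 0.445 in KO.

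Factors that act on strand exchange and on later joints were mostly uncalled. Rad52, a strand annealing protein, fell from 10.1 to 6.22 FPKM by the authors' deposited table (log2 fold change -0.70, q = 0.00039). Of 3 further genes that assist strand exchange, Rad51c stood at 19.7 FPKM in WT and 18.1 in KO, Xrcc2 at 11.9 and 9.19 FPKM, and Xrcc3 at 5.63 and 7.08 FPKM. None of the 3 was called in the authors' deposited table (q = 0.549, 0.0531 and 0.349). Rad54l, a motor protein that helps strand exchange, was at 23.2 and 23.6 FPKM, and Blm, the helicase that takes joints apart, at 31.7 and 36.4 FPKM, neither called in that table (q = 0.936 and 0.274).

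Fanconi anaemia genes were called in both directions, near the shares of all tested genes (22.4% higher, 28.4% lower). Of 10 genes 3 were called higher (Fanca, Fanci and Fancm), 2 lower (Fancl and Fancb) and 5 were not called in the authors' deposited table; with equal totals Fancb turned, to 0.08, and the split was 4 and 1. At q under 0.01 Fanci and Fancm lost the call, which left 1 higher and 2 lower, and with the authors' test statistic read as a standard normal value only Fanca and Fancl were called. Fanca, a subunit of the core complex that ubiquitinates FANCD2 and FANCI (chromosome 8, 125778094 to 125842476, mm9, the same span as Zfp276), rose from 10.1 to 19.7 FPKM by the authors' deposited table (log2 fold change 0.96, q = 0.000206). Zfp276 stood at 2.30 FPKM in WT and 2.45 in KO there and was not called (q = 0.870). Fancl, the ubiquitin ligase of the core complex (chromosome 11, 26287083 to 26493920, mm9), fell from 51.3 to 28.4 FPKM by the authors' deposited table (-0.85, q = 0.000206). Vrk2, which shares its table region, fell as well (-0.73, q = 0.0224 in that table). Fancb, an X-linked partner of Fancl, fell from 11.0 to 7.38 FPKM (-0.57, q = 0.00297 in the authors' deposited table).

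Other core subunits did not pass the test. Fancg stood at 6.34 FPKM in WT and 6.92 in KO, Fance at 9.14 and 8.67 FPKM, Fancc at 9.31 and 6.85 FPKM, and Fancf at 3.0 and 2.32 FPKM, with q from 0.121 to 0.751 in the authors' deposited table. Fanca was 1.6 times as abundant as Fancg, its direct partner, in WT and 2.85 times in KO. Fancm, the helicase-like protein that anchors the complex on DNA, rose from 9.91 to 13.2 FPKM by the authors' deposited table (log2 fold change 0.42, q = 0.0199). Of the pair that the complex modifies, Fanci rose from 17.6 to 24.8 FPKM (0.49, q = 0.0422), while Fancd2 stood at 20.1 and 22.3 FPKM and was not called (0.16, q = 0.413) in the authors' deposited table. Fancc shares its table region with 6 other rows and Fanci with Polg, so reads of overlapping genes are uncertain.

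Mismatch repair genes all lay below 0 as measured, with 1 of 3 called (33.3%, against 50.8% of all tested genes). Msh3, which recognises larger loops (chromosome 13, 92981835 to 93159008, mm9), fell from 22.2 to 13.8 FPKM by the authors' deposited table (log2 fold change -0.68, q = 0.0208). Msh6, which recognises single mispairs, had the highest level of the 44 genes, 269 FPKM in WT and 226 in KO, and was not called in the authors' deposited table (-0.25, q = 0.178). Pms2, the endonuclease subunit, stood at 17.3 and 14.4 FPKM, also not called there (-0.27, q = 0.154). Msh6 was 12.1 times as abundant as Msh3 in WT and 16.3 times in KO. With equal totals Msh6 and Pms2 would lie above 0 and Msh3 at -0.031. After subtraction of the median of genes similar in both level and length, Msh6 lay at 0.25, Msh3 at -0.52 and Pms2 at -0.26.

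Of the 4 checkpoint kinases only Chek1 was called (25%, against 50.8% of all tested genes), and 4 genes are too few to set the role apart. Chek1, which halts the cycle when replication stalls (chromosome 9, 36516066 to 36534243, mm9), fell from 49.0 to 27.2 FPKM by the authors' deposited table (log2 fold change -0.85, q = 0.000206). Atr, the kinase that activates CHEK1, stood at 14.0 FPKM in WT and 16.3 in KO (0.22, q = 0.247 in that table). The level of Chek1 was 3.50 times that of Atr in WT and 1.67 times in KO. After subtraction of the median of genes similar in both level and length, Chek1 lay at -0.35 and Atr at 0.22. Atm, the kinase that answers double-strand breaks, was at 8.64 and 9.35 FPKM, and Chek2, its substrate, at 38.3 and 41.5 FPKM, with q = 0.559 and 0.558 in the authors' deposited table. Their ratio was 4.43 in WT and 4.44 in KO.

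Of the 6 end joining genes 5 were called, where 50.8% of all tested genes were, and with the statistic read as standard normal only Xrcc4 and Xrcc5 stayed called. Of the 5, 4 were called lower and 1 higher in the authors' deposited table. With equal totals Lig4 and Xrcc6 turned and the split by sign was 2 and 3, with Xrcc5 at -0.045. Xrcc5 and Xrcc6 encode the Ku subunits that clamp broken ends. Xrcc5 (chromosome 1, 72353994 to 72441527, mm9) fell from 190.4 to 117 FPKM and Xrcc6 from 102 to 68.0 FPKM by the authors' deposited table (log2 fold changes -0.70 and -0.59, q = 0.000206 and 0.00056). Both lay slightly above the median of genes of their level (-0.72). Prkdc, the catalytic kinase that Ku recruits (chromosome 16, 15637958 to 15842332, mm9), rose instead, from 3.64 to 5.67 FPKM in that table (0.64, q = 0.00039). Xrcc6 was 28.0 times as abundant as Prkdc in WT and 12.0 times in KO. After subtraction of the median of genes similar in both level and length, Xrcc6 lay at -0.028 and Prkdc at 0.38.

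The ligation pair of end joining fell together. Xrcc4, the scaffold of the ligase (chromosome 13, 89988518 to 90229213, mm9), fell from 14.6 to 7.89 FPKM by the authors' deposited table (log2 fold change -0.89, q = 0.000206). Lig4, the ligase itself, fell from 11.8 to 7.83 FPKM there (-0.59, q = 0.00056), but turned to 0.06 with equal totals. Trp53bp1, which shields ends from trimming, was at 14.6 FPKM in WT and 13.1 in KO and was not called (-0.15, q = 0.442 in the authors' deposited table).

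Of 7 nucleotide excision repair genes 5 were not called. The called share was 28.6%, against 50.8% of all tested genes, and 7 genes are too few to set the role apart. Xpa, the scaffold that verifies damage (chromosome 4, 46188093 to 46209183, mm9), fell from 9.70 to 5.84 FPKM by the authors' deposited table (log2 fold change -0.73, q = 0.00244). Ercc5, the nuclease that cuts on the 3′ side, rose from 13.6 to 18.2 FPKM in that table (0.43, q = 0.0162). Ercc1 and Ercc4, the nuclease pair that cuts on the 5′ side, stood at 21.4 and 3.67 FPKM in WT and at 15.2 and 3.26 FPKM in KO, with q = 0.303 and 0.425 in the authors' deposited table. Ercc1 shares its table region with Cd3eap, which was called lower there (-1.16, q = 0.000206). The TFIIH helicase genes Ercc3 (36.6 and 29.4 FPKM) and Ercc2 (8.25 and 9.09 FPKM) and the damage sensor gene Xpc (8.77 and 10.3 FPKM) were not called in that table (q = 0.0756, 0.560 and 0.251).

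Beside genes of similar level, the 44 genes were spread to both sides. Across all tested genes, abundant genes were lower and rare ones higher in KO, from a median log2 fold change of 0.69 in the lowest decile by mean FPKM to -0.72 in the highest. Of the 44 genes 24 exceeded their decile's median and 20 fell short of it, and the median of these differences was 0.03. All 6 genes called higher lay above it, and 12 of the 14 called lower lay below it, Xrcc5 (by 0.02) and Xrcc6 (by 0.13) being above. Nbn lay furthest below, at -1.0, followed by Xrcc4 at -0.86, and Fanca furthest above at 1.11 (these choices of gene follow their values). Chek2 and Brca1, which were not called, lay 0.62 and 0.68 above genes of their level.

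**Figure D2:**
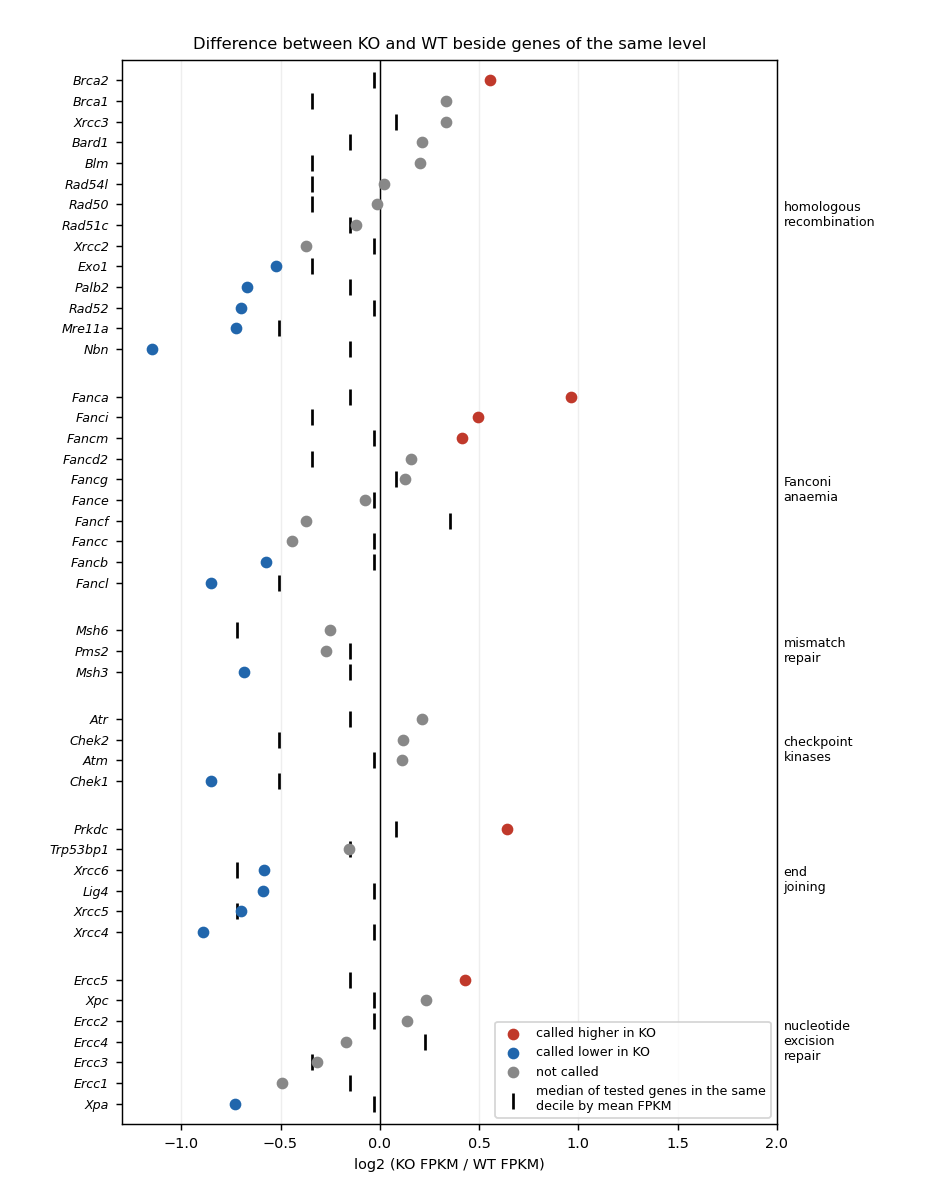
Log2 ratio of KO to WT FPKM for each of the 44 genes (points, coloured by the authors' call at q under 0.05), with the median of all tested genes in the same decile by mean FPKM (black ticks); no error bar can be given for pooled values. Called genes lie on both sides, from Nbn at -1.15 to Fanca at 0.96, and Xrcc5 sits on its tick; with equal totals all points and ticks would move right by 0.65, which takes Exo1, Fancb, Lig4 and Xrcc6 past 0.

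Log2 fold changes were higher for longer transcripts, among the 44 genes and among all tested genes. Transcript lengths were found for all 44 genes. Spearman's rho between length and log2 fold change was 0.46 over the 44 genes and 0.30 over 13929 tested genes, a description across genes that share the same pooled libraries. The median length was 6230.5 bases for the 6 genes called higher and 3487.5 bases for the 14 called lower. Prkdc (12647 bases) and Brca2 (10724 bases), the longest of the group, both rose. Of 15 genes of at least 5000 bases, a limit chosen after the values were seen, 3 were called higher and 3 lower (20% each), against 43.6% higher and 13.6% lower among all tested genes of that length; their median log2 fold change was 0.11 beside 0.32 for those 2795 tested genes. Of 29 shorter genes 3 were called higher and 11 lower (10.3% and 37.9%), against 17.3% and 32.3% of shorter tested genes, with a median of -0.37 beside -0.16 for the 11134 shorter tested genes. After subtraction of the median of genes similar in both level and length, the group's median was -0.02, and the 20 called genes kept their sign, although Xrcc5 and Xrcc6 came close to 0 (-0.054 and -0.028).

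**Figure D3:**
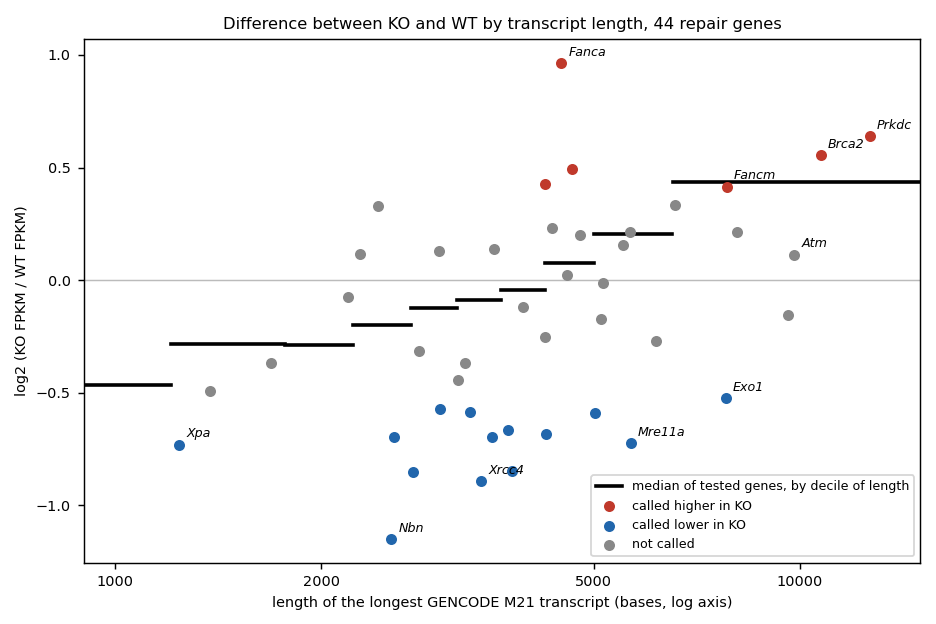
Log2 ratio of KO to WT FPKM against the length of the longest annotated transcript (log axis) for the 44 genes, coloured by the authors' call; black lines give the median of tested genes in each decile of length, the outermost running past the axis. The lines climb from -0.46 to 0.44, and Exo1 and Mre11a lie far below the line for their length; with equal totals lines and points would move up by 0.65.

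Other genes of the same pathways were lower more often than higher. Of 106 such genes, taken from textbook knowledge, 105 were tested (Dntt was not), and by the authors' deposited test 43 were called lower, 10 higher and 52 not called, a called share of 50.5% beside 50.8% for all tested genes. With equal totals these calls, not tested anew, split by sign into 26 lower and 27 higher. Their median log2 fold change was -0.28, and relative to genes of the same level -0.01. By role, 13 of 24 checkpoint partners and 10 of 17 excision repair genes were called lower, beside 28.4% of all tested genes. With equal totals, a shift of 0.65, 6 of these 13 and 9 of these 10 kept a sign below 0. Of those, Cdk7 (-0.66 as measured), Rad23b (-0.68), Gtf2h3 (-0.69), Etaa1 (-0.69), Rad1 (-0.70) and Rnf168 (-0.72) came close to 0. The median level in WT was 27.4 FPKM for the checkpoint partners and 47.3 for the excision repair genes, beside 7.40 for all tested genes. Relative to genes of the same level, the median log2 fold changes of these 2 roles were -0.089 and -0.087. In the other roles the genes called lower were 10 of 31 for homologous recombination, 4 of 12 for the Fanconi anaemia pathway, 2 of 9 for mismatch repair and 4 of 12 for end joining. The largest falls were those of Ccnh, the cyclin of the TFIIH kinase (53.2 to 23.7 FPKM), Cetn2, a partner of XPC (70.8 to 33.7 FPKM), Sfr1, a recombination cofactor (264 to 129 FPKM), and Pcna, the sliding clamp (723 to 356 FPKM), with log2 fold changes from -1.17 to -1.02 and q = 0.000206 for each in the authors' deposited table. The largest rises were those of Msh5, a meiotic MutS homologue (0.389 to 0.954 FPKM), Uvssa, which acts at stalled polymerases (0.674 to 1.22 FPKM), Slx4, a nuclease scaffold (4.46 to 7.27 FPKM), and Cdc25b, a phosphatase that opens mitosis (7.39 to 11.7 FPKM), at 0.66 to 1.29 and with q up to 0.00104 there.

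**Figure D4:**
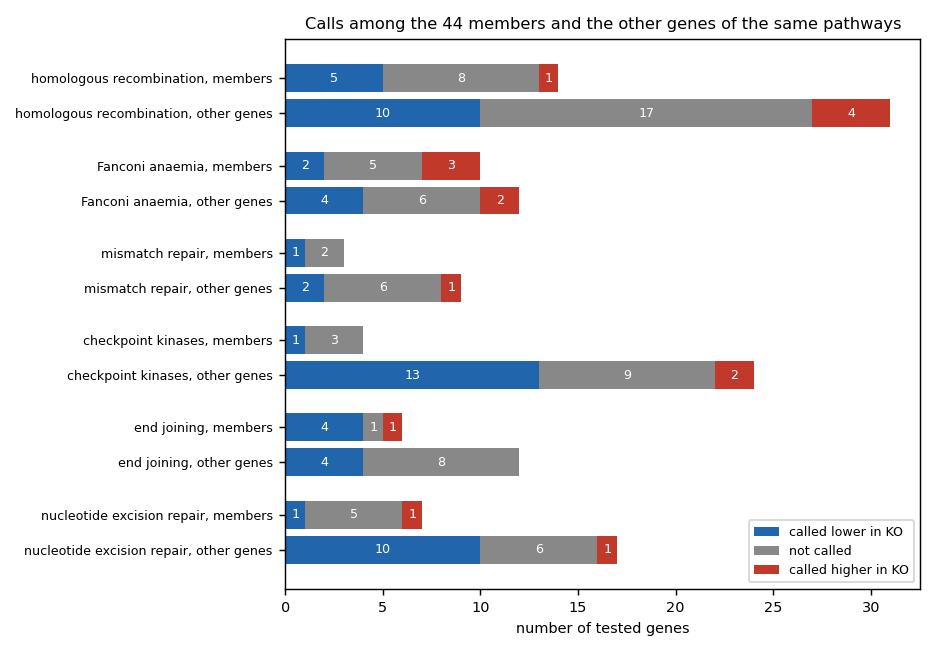
Number of tested genes called lower (blue), not called (grey) and called higher (red) in KO at the authors' q under 0.05, for the 44 genes (members) and for the other genes of the same pathways, by role. Lower calls outnumber higher ones in most bars, and among Fanconi anaemia members 3 are higher and 2 lower. By sign alone, with equal totals 10 of the 20 called members and 27 of the 53 other called genes would lie above 0.

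Some repair genes start back to back with a neighbour, at distances here from 37 bases (Lig4) to 559 bases (Rad51c). Of the 36 genes with a RefSeq window, 11 had a tested neighbour on the other strand whose RefSeq start lay within 1000 bases upstream. The share of all tested genes with such a neighbour was not worked out. The sign of the log2 fold change was shared in 9 of the 11 pairs (81.8%), beside 450 of 721 such pairs among all tested genes (62.4%). Both genes were called only in the pairs of Xrcc4 and Palb2, and some shared signs were of differences near 0 (Rad51c -0.12, Tex14 -0.04). The signs depend on the scaling, and neither count was made with equal totals. Xrcc4 and Tmem167, whose starts are 59 bases apart within the Xrcc4 window printed above, both fell in the authors' deposited table, the latter from 10.8 to 5.61 FPKM (log2 fold changes -0.89 and -0.94, q = 0.000206 for both). Palb2 and the dynactin gene Dctn5, 95 bases apart, also both fell there, Dctn5 from 49.5 to 34.2 FPKM (-0.53, q = 0.0031), though Dctn5 would lie above 0 with equal totals. Mre11a fell while Ankrd49, 81 bases away, was at 14.9 FPKM in WT and 16.5 in KO and not called (0.14, q = 0.519 in the authors' deposited table). Pms2 was not called while Aimp2, 162 bases away, fell from 104.8 to 60.9 FPKM (-0.78, q = 0.00191 in that table). With equal totals Pms2 would lie above 0 (0.38) and Aimp2 still below it. Lig4 lies 37 bases from Abhd13, which was not called there (-0.33, q = 0.0736).

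**Figure D5:**
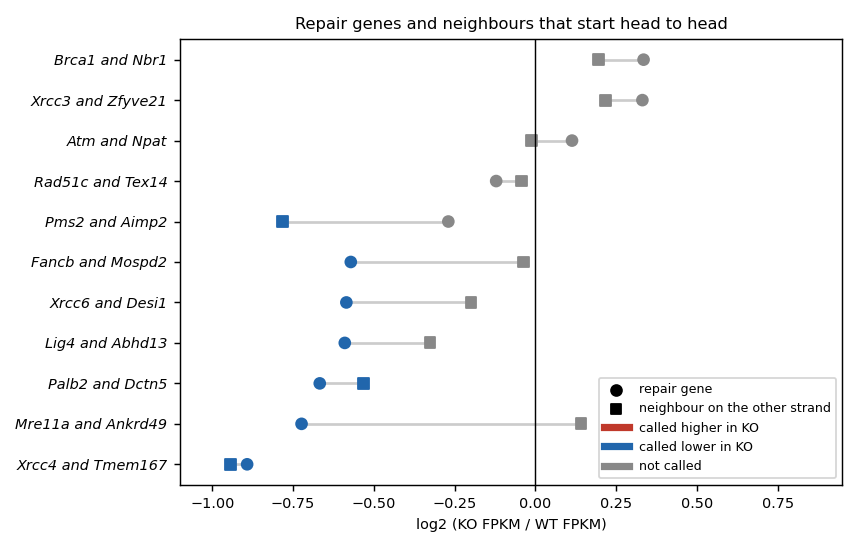
Log2 ratio of KO to WT FPKM for 11 repair genes (circles) and the neighbours that start head to head with them (squares), coloured by the authors' call at q under 0.05. Xrcc4 and Palb2 lie close to their neighbours, Mre11a and Fancb lie apart from theirs; with equal totals all symbols would move right by 0.65.

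Of the 20 calls, 13 rest on how the deposited p-values were derived. For Exo1 the authors' deposited table pairs a test statistic of -2.08 with p = 0.00065, where a standard normal distribution would give 0.0375. When the statistic is read as standard normal, 7 of the 44 genes are called (15.9%) beside 25% of tested genes: Nbn, Chek1, Xrcc4, Mre11a, Xrcc5 and Fancl lower and Fanca higher. The way in which the statistic became a p-value was not given in the sources used here.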

How the data were processed

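The data are those of mouse ES cell messenger RNA libraries, 2 WT and 4 KO, per the labels. Reads were aligned with TopHat2 to mm9, per the submitters' processing notes, and the gene annotation and versions are not given in the sources used here. Columns are laid out as in Cuffdiff's gene-level output, per the file headers. It holds 1 FPKM value per genotype as deposited by the authors, and which libraries entered each is not stated. The authors also deposited a log2 fold change, a test statistic (treated as a score), a p-value and a q-value per gene. The q-value equalled a Benjamini-Hochberg adjustment of the deposited p-values to within 5.18e-07, and the smallest p-value, 5e-05, is shared by 7 of the 44 genes, so these cannot be ranked by it. With 1 value per genotype no test was run anew. Overlapping genes are given a joined region, which touches 12 of the 44 genes, and table positions are printed as given.

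The 44 genes, the other repair genes and the markers were chosen with earlier results of these data known, so no set test was made and list medians are descriptions. All 44 genes are named, with up to 4 other repair genes in each direction by the largest called fold change. Medians by decile of mean FPKM and of transcript length used the 14039 tested genes with a finite fold change. Lengths were those of the longest GENCODE M21 transcript of the symbol or its synonym, found for 99.2%. For level and length together, 25 classes were formed. For equal totals, the log2 ratio of summed FPKM was subtracted with the calls kept. The class medians and the adjustment were tested on simulated data. Promoter windows were the first listed for each gene by RefSeq (GRCm38.p6). Computations ran in Python 3.11.15 (pandas 2.3.3, NumPy 2.4.6, SciPy 1.17.1), with plots by matplotlib 3.10.9.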

Additional observations from a re-analysis of the deposited data

How the results depend on the processing

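No paired analysis was possible because the table holds 1 pooled value per genotype, and for the same reason no library could be left out in turn; depth is unknown. The counts of 6 repair genes called higher and 14 lower became 3 and 13 at q under 0.01, 7 and 16 at q under 0.1 (with Brca1, Xrcc2 and Ercc3), 0 and 1 (Nbn) with a fold of at least 2, and 1 and 6 with the statistic read as standard normal, an alternative chosen after seeing the data. None of the 44 genes lay under the lowest quartile of level (2.0 FPKM), so dropping genes below it could not change their calls. Equal totals gave 10 and 10 by sign alone, turning Exo1 (0.13), Fancb (0.0815), Xrcc6 (0.0678) and Lig4 (0.0629). Subtraction of the level decile's median gave 8 and 12, likewise by sign alone, turning Xrcc5 (0.0209) and Xrcc6 (0.13). The group's median of -0.16 was 0.49 with equal totals, 0.0283 after subtraction of the level decile's median, -0.0176 after that of the level and length class (also chosen after seeing the data), -0.10 after that of all tested genes, and -0.22 without genes that share a table region. For the other repair genes, 10 higher and 43 lower became 1 and 5 with a fold of at least 2, 27 and 26 with equal totals, 3 and 24 with the statistic as standard normal, and 16 and 37 after subtraction of the level decile's median. The remaining alternatives moved these counts by at most 1.5 times. The cause of these shifts was not tested.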

Other observations

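Genes of protein complexes outside the 44 genes, picked after their values were seen, were lower as measured, in part by no more than other genes of their level. Replication protein A coats single strands during recombination, excision repair and checkpoint signalling, and its genes all fell in the authors' deposited table: Rpa1 from 245 to 166 FPKM, Rpa2 from 130.7 to 77.9 FPKM and Rpa3 from 216 to 118 FPKM (log2 fold changes -0.56, -0.75 and -0.87). The median of all tested genes of their level was -0.72, so Rpa1 lay above it, Rpa2 close to it and Rpa3 below it. Beside genes similar in both level and length each lay below the median, which was -0.30 for Rpa1, -0.64 for Rpa2 and -0.74 for Rpa3. With equal totals Rpa1 would lie above 0.

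TFIIH opens DNA around a lesion, and of its genes besides Ercc2 and Ercc3, 7 of 8 were called lower in the authors' deposited table, beside 28.4% of all tested genes. Gtf2h5 fell from 100.3 to 55.0 FPKM, Gtf2h2 from 58.2 to 33.2 FPKM, and the kinase assembly factor gene Mnat1 from 43.6 to 25.3 FPKM in that table (log2 fold changes -0.87, -0.81 and -0.78, q = 0.000206 for each), while Gtf2h1 stood at 66.9 FPKM in WT and 57.9 in KO and was not called (q = 0.255). Genes of similar level had a median of -0.72 for Gtf2h5, -0.15 for Cdk7 and -0.51 for the others, and Gtf2h1 lay above it while the other 7 lay below. Beside genes similar in both level and length, Gtf2h4 lay above as well (-0.595 beside -0.736). Gtf2h3 was close to that median (-0.691 beside -0.644), and the remaining genes lay further below theirs. With equal totals Gtf2h4 would lie above 0, and Cdk7 and Gtf2h3 would lie just below it.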
